A study of Mus musculus with 9 samples.

Results

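The 9 mature miRNAs described here come from a small cluster of hairpins in the imprinted Dlk1-Dio3 domain of mouse chromosome 12, most of them on the strand opposite the gene Rtl1. They were chosen by name, as mmu-miR-127-3p, mmu-miR-127-5p, mmu-miR-136-5p, mmu-miR-136-3p, mmu-miR-337-3p, mmu-miR-431-5p, mmu-miR-433-3p, mmu-miR-434-3p and mmu-miR-434-5p. No rule on measured values was used, although earlier results of these data were known at the time. They are 9 of the 1448 mature miRNAs in the deposited read count table, and all 9 are among the 628 miRNAs that had at least 10 reads in at least 3 libraries and were tested. Small RNA of the hippocampus was sequenced in 9 libraries from C57BL/6J mice, which the methods describe as adult males, with 3 libraries in each of 3 groups. The saline group received 0.9% saline. The LPS group received a single intraperitoneal dose of lipopolysaccharide (LPS, a bacterial endotoxin that sets off inflammation) at 1 mg/kg, with 0.12% saline according to the labels. The LPS + GAS group received the same LPS and, per the labels, gastrodin (GAS, a phenolic glucoside from the orchid Gastrodia elata) at 100 mg/kg 1 h later. The methods also describe GAS as given concurrently with LPS, and they place behavioural tests at 6 and 24 h before the tissue was taken, so the timing of the injections and the hours from LPS to tissue are not settled by these sources. LPS given to the whole animal is a model of acute systemic inflammation, and every mouse that received GAS also received LPS.

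In the Dlk1-Dio3 domain, protein-coding genes such as Dlk1 and Rtl1 are expressed from the paternal chromosome, whereas the long non-coding RNAs Meg3, Rian and Mirg and the miRNAs along them are expressed from the maternal chromosome. Rtl1, a gene derived from a retrotransposon and needed in the placenta and in muscle, is read in the opposite direction to the miRNAs. Those miRNAs that lie across it are therefore fully complementary to its mRNA and can direct its cleavage, in addition to pairing with other mRNAs through their seed as miRNAs generally do.

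The mature sequences are shown first, since their position and their pairing to Rtl1 are what the members have in common. They are taken from RefSeq (GRCm38.p6, all 9 matched by name), are all read from the plus strand, and are written 5′ to 3′ with the seed (bases 2 to 8) in capitals, in their order along the chromosome.
miR-337-3p: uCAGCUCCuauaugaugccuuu
miR-431-5p: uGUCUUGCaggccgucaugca
miR-433-3p: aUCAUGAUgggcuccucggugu
miR-127-5p: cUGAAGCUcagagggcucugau
miR-127-3p: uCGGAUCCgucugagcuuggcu
miR-434-5p: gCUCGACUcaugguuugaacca
miR-434-3p: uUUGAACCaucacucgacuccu
miR-136-5p: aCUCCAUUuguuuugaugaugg
miR-136-3p: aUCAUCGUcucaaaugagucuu

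None of the 9 seeds is shared with another member or with any other of the 1448 miRNAs, and none of the 9 full sequences is listed a second time, so these miRNAs form a family by place and not by seed. The members are 21 or 22 bases long. Among the hairpins with both arms as members, the longest run that the 2 arms had in common was uuugaacca. It forms the last 9 bases of miR-434-5p and the first 9 of miR-434-3p.

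The hairpins lay within 9.6 kb. Mir337 was at chr12:109585789-109585885, Mir431 at chr12:109590447-109590537 and Mir433 at chr12:109591715-109591838. Mir127 was at chr12:109592846-109592915, Mir434 at chr12:109594506-109594599 and Mir136 at chr12:109595327-109595388. In GENCODE M21, Rtl1 (chr12:109589193-109600330, minus strand) has its coding part in a single stretch that contains 5 of these 6 hairpins, which sit within 4.942 kb of each other. Mir337 is the exception. It ended 3307 bases outside the annotated gene.

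Searching the 1 annotated Rtl1 transcript (6358 bases) for the complement of each mature sequence gave the same division. For 8 of the 9 members a complement over the full length of the miRNA was found, each time in the coding part. For miR-337-3p none was found, so that "antisense to Rtl1" holds for 8 of the 9 by sequence. The sites follow each other from 17 bases after the start of the coding part for miR-136-3p to 4925 for miR-431-5p, counting the A of the start codon as 1. The sites in the Rtl1 mRNA of the 3 members whose values carry most of the account below are shown as DNA letters, 5′ to 3′ in the direction of Rtl1, and each pairs with every base of its miRNA.
Rtl1 site of miR-136-5p, coding position 52: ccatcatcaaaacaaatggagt
Rtl1 site of miR-434-3p, coding position 818: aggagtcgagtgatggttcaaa
Rtl1 site of miR-127-3p, coding position 2495: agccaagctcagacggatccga

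The libraries held 10119758 to 11457656 reads on miRNAs, which puts the filter of 10 reads at 0.873 to 0.988 CPM before scaling. Levels are given in CPM, the reads of a miRNA per 1000000 reads of its library, after TMM scaling, with factors of 0.914 to 1.19, the highest in LPS replicate 2. No replicate pair agreed within sampling noise (chi-square over its degrees of freedom of 278 to 709). All 4 neuronal marker miRNAs fixed for the tissue check were detected in each library. The labels do not state whether the libraries of a group came from separate mice, so the p-values below measure only the spread between these libraries.

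The cluster was abundant in the hippocampus but very unequal among its members. miR-127-3p, which is known to target the transcriptional repressor Bcl6, had a mean of 22788 ± 3888 CPM (SD over the 9 libraries) and rank 11 of the 1448 miRNAs. It was followed by miR-434-3p with 5052 ± 1619 CPM and miR-433-3p with 2820.5 ± 886 CPM. miR-434-5p had 616 ± 133.8 CPM, miR-136-5p 486 ± 41.1 CPM and miR-431-5p, known from axon growth of sensory neurons, 297 ± 59.6 CPM. The other 3 members were scarce, miR-136-3p at 44.3 ± 7.32 CPM, miR-337-3p at 23.8 ± 7.59 CPM and miR-127-5p at 4.82 ± 2.13 CPM, which has rank 441.

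Between the highest and the lowest member the mean level differed by more than 3 orders of magnitude, although both come from the Mir127 hairpin. Adjacent members in this order kept it in all 9 libraries, without overlap of their ranges, at 4 of the 8 steps. These were the steps from miR-127-3p to miR-434-3p, from miR-433-3p to miR-434-5p, from miR-431-5p to miR-136-3p and from miR-337-3p to miR-127-5p. At the other 4 steps the order was reversed in 1 library each and the ranges overlapped. These were the steps from miR-434-3p to miR-433-3p, from miR-434-5p to miR-136-5p, from miR-136-5p to miR-431-5p and from miR-136-3p to miR-337-3p. In the other 8 libraries the order held, with means 1.27-fold to 1.86-fold apart, and these differences were not tested. Levels of different miRNAs also depend on how well each sequence is ligated and amplified, which was not measured here.

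**Figure D1:**
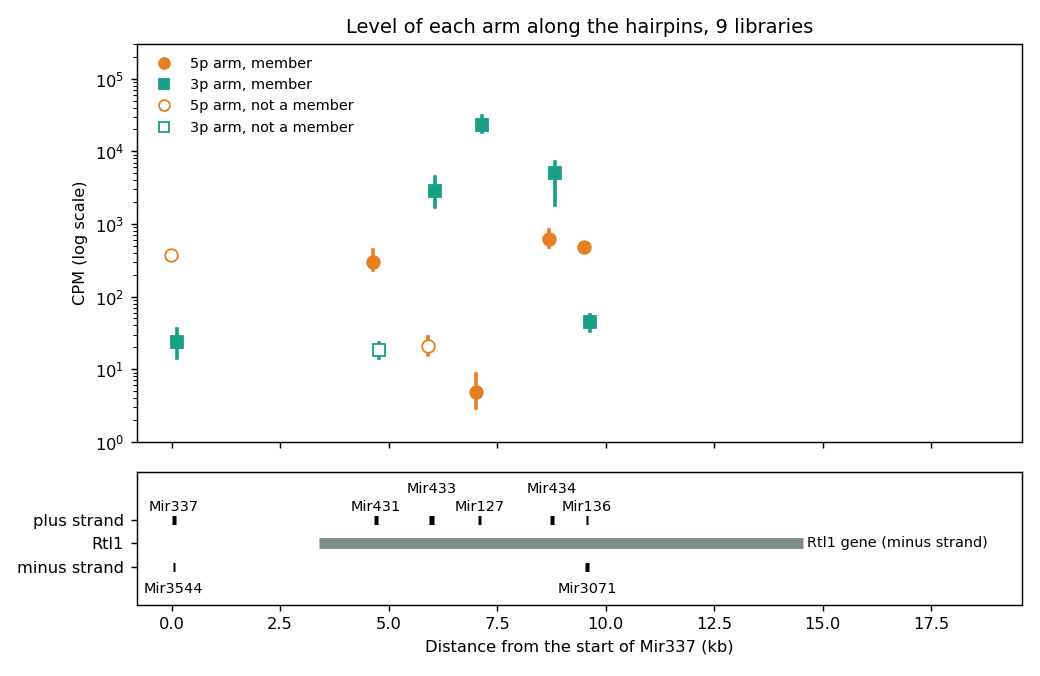
Upper panel: level of both arms of the 6 plus-strand hairpins in CPM (log scale), as the mean of 9 libraries (marker) with the lowest and highest library (bar), against distance in kb from the start of Mir337; filled markers are members. Lower panel: the hairpins and the Rtl1 gene on the same axis. The level peaks at miR-127-3p with 22788 CPM, and the other arm of the same hairpin is the lowest member with 4.82 CPM.

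Counted as a share of all miRNA reads without TMM scaling, the 9 members together took 2.44% to 4.85% of a library (median 3.00%). The share was 3.18% ± 0.760 in saline, 3.61% ± 1.07 in LPS and 2.92% ± 0.234 in LPS + GAS (SD, n = 3), so the group means lay within the spread of the first 2 groups. The highest share belonged to LPS replicate 2 and the lowest to saline replicate 1. miR-127-3p alone supplied 67.3% to 78.4% of the members' reads, and its own share of a library ranged from 1.78% to 3.27%. Exact two-sided permutation tests of that share gave no call (p = 0.8 between LPS and saline, 0.6 between LPS + GAS and LPS and 0.5 between LPS + GAS and saline, each 0.8 after Benjamini-Hochberg adjustment). With 3 libraries against 3 such a test cannot give a p below 0.1. The 62 tested miRNAs of the distal Mirg part of the domain, with the 11 listed there that were not tested, took 2.34% to 3.42% of a library between them, so the 9 members weighed about as much as the 73 miRNAs of that part.

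The members also differed in how steady they were over the 9 libraries. miR-136-5p was the steadiest, with a coefficient of variation of 8.45% and a ratio of highest to lowest library of 1.26. The coefficient of variation was 16.5% for miR-136-3p, 17.1% for miR-127-3p, 20.1% for miR-431-5p and 21.7% for miR-434-5p. It reached 31.4% for miR-433-3p, 31.9% for miR-337-3p, 32.1% for miR-434-3p and 44.2% for miR-127-5p. The median over the members, 21.7%, was near the 23.6% over all 628 miRNAs tested. It was 17.4% over the 185 miRNAs tested with a mean above 100 CPM, a level that 6 of the 9 members had. The fewest reads in a library were 20652 for miR-434-3p and 16748 for miR-433-3p, while miR-127-5p had 29 to 93 reads.

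The values in each library show where this spread came from. In saline replicates 1, 2 and 3, miR-127-3p stood at 19481, 22700.1 and 30634 CPM, in the LPS replicates at 21401, 27464 and 21418 CPM, and in the LPS + GAS replicates at 20861, 22706 and 18425 CPM. The 3 groups overlapped, and saline alone spanned almost the whole range. miR-434-3p was at 3818, 1826 and 6081 CPM in saline, at 4870.5, 7159 and 5978 CPM in LPS and at 4940, 6497 and 4300 CPM in LPS + GAS. Here saline replicate 2 was the low library, and every other library had over 2 times its level, while saline replicate 3 was within the range of the LPS group. miR-433-3p, whose known targets include the growth factor gene Fgf20, had 1965, 2753 and 3853 CPM in saline, 3127, 4396 and 2025 CPM in LPS and 2779, 1694 and 2792 CPM in LPS + GAS. Its highest library was LPS replicate 2 and its lowest LPS + GAS replicate 2, and all 3 groups overlapped.

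miR-434-5p, the lesser arm of its hairpin, was at 579, 833 and 681 CPM in saline, at 536, 826 and 495.4 CPM in LPS and at 569.8, 485.3 and 537 CPM in LPS + GAS. All 3 LPS + GAS libraries were below all 3 saline libraries, by a gap of only 569.8 to 578.7 CPM. miR-136-5p was at 522, 532 and 476 CPM in saline, at 499, 431.5 and 542 CPM in LPS and at 459, 431.003 and 484 CPM in LPS + GAS, and no library stood apart. miR-431-5p was at 278, 231 and 342 CPM in saline, at 299.4, 431.8 and 245 CPM in LPS and at 272, 285 and 291 CPM in LPS + GAS. Its LPS + GAS libraries lay close together inside the range of both other groups, and LPS replicate 2 was the high library.

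Among the scarce members, miR-136-3p was at 55.3, 47.1 and 43.1 CPM in saline, at 47.0, 50.4 and 33.1 CPM in LPS and at 35.9, 38.0 and 48.6 CPM in LPS + GAS, with overlap throughout. miR-337-3p was at 25.0, 35.4 and 27.4 CPM in saline, at 21.1, 19.8 and 34.7 CPM in LPS and at 15.5, 14.3 and 20.7 CPM in LPS + GAS. Every LPS + GAS library was below every saline library, while LPS reached into both. miR-127-5p was at 2.96, 5.48 and 5.54 CPM in saline, at 3.58, 7.73 and 8.55 CPM in LPS and at 3.45, 2.93 and 3.18 CPM in LPS + GAS. All LPS + GAS libraries were below all LPS libraries, but LPS replicate 1 and LPS + GAS replicate 1 differed by a single read (36 and 37 reads before scaling, the higher count in LPS + GAS). The exact 95% Poisson intervals, which cover counting error only, were 25.2 to 49.8 and 26.1 to 51.0 reads.

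**Figure D2:**
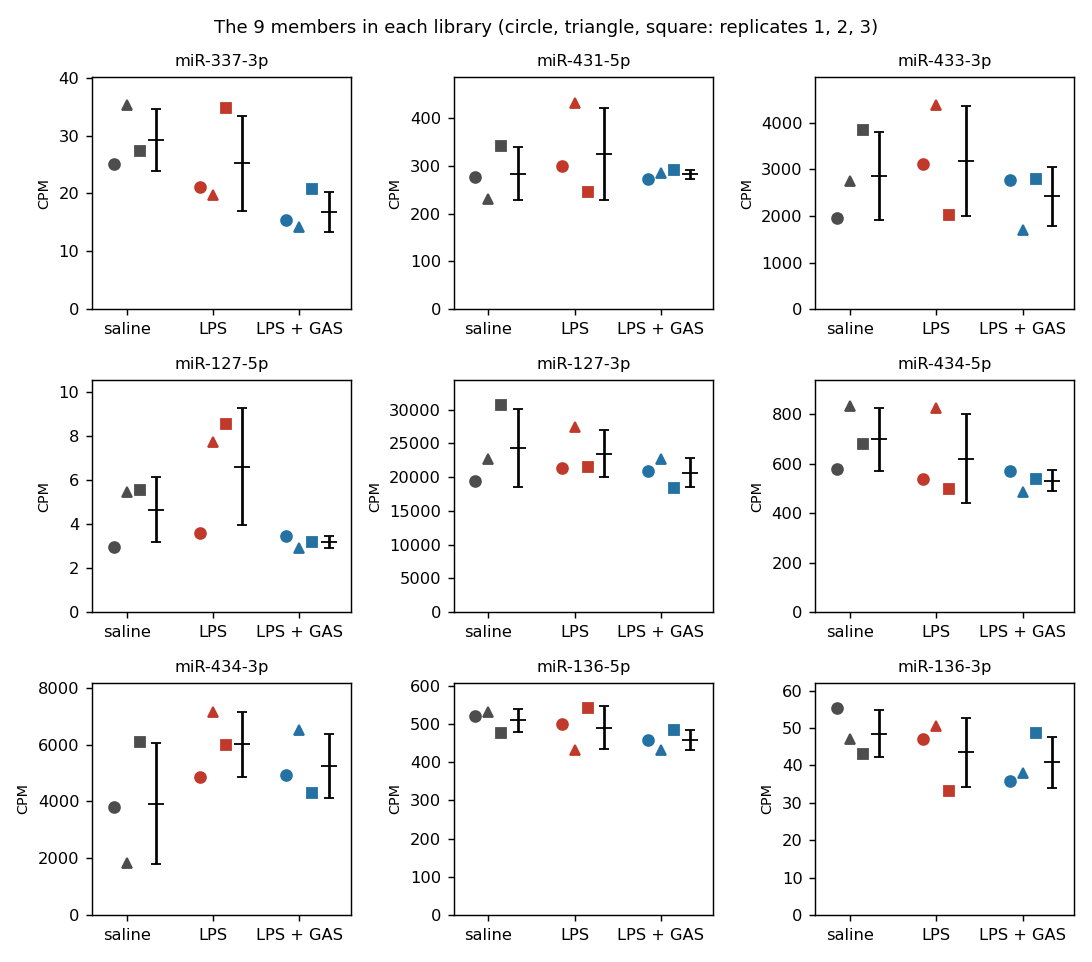
CPM of each member (y axis, from 0) in the saline, LPS and LPS + GAS libraries (x axis), with the replicates as separate markers and the group mean ± SD (n = 3) in black at the right of each group. The groups overlap for most members. miR-127-5p in LPS + GAS vs LPS, and miR-337-3p and miR-434-5p in LPS + GAS vs saline, are the exceptions.

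The first comparison asks what LPS did to these miRNAs in the hippocampus. None of the 9 members passed the test, for which the threshold was 0.05 for the adjusted p together with a 2-fold difference in either direction, and the same was true of all 628 miRNAs (0% called). The Wald test of DESeq2 called 1 of the 628 and voom 0, and neither called a member. The largest fitted difference was that of miR-434-3p, with a log2 fold change of 0.62 (SE 0.37) and group means of 6002 ± 1144 CPM in LPS and 3909 ± 2129 CPM in saline. miR-127-5p followed with 0.51 (SE 0.35), a value that ranged from 0.29 without LPS replicate 3 to 0.80 without LPS replicate 1. For the other 7 members the fitted difference was smaller than its standard error, from -0.22 for miR-337-3p to 0.20 for miR-431-5p, and for miR-127-3p it was -0.05 (SE 0.20). The Benjamini-Hochberg adjusted p of edgeR's quasi-likelihood test was 0.992 for each member, and no member had an unadjusted p under 0.05 (2.39% of the miRNAs tested). The log2 fold change was below 0 for 5 of the 9 members, against 57.5% of all miRNAs tested, and the groups overlapped for each member, against 3.82% without overlap in either direction among all. The value of miR-434-3p varied with the saline libraries. It was 0.33 without saline replicate 2 and 1.09 without saline replicate 3, where the adjusted p was 0.699. The sign of miR-127-3p was not settled, since it was 0.0090 with DESeq2's size factors. All 8 choroid plexus and ependymal, all 4 red blood cell and all 3 oligodendrocyte marker miRNAs were below 0 in this comparison. Their medians were -0.56, -0.39 and -0.61. Above 0 were 2 of 4 neuronal, 2 of 4 microglia and leukocyte and 1 of 2 endothelial markers (medians 0.11, -0.02 and -0.03). No marker was called, and the part of the markers in the members' values was not tested.

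The second comparison asks how the mice that also received GAS differed from those with LPS alone. The fitted log2 fold change was below 0 for all 9 members, against 49.4% of all miRNAs tested, with a median of -0.20 over the members and 0.0030 over all. None of the 9 passed the test, nor did any of the 628 (0% called, and 0 with DESeq2 or voom), and for 6 of the 9 the difference was smaller than its standard error. The largest difference was that of the scarce arm miR-127-5p, with a log2 fold change of -1.052 (SE 0.36) and group means of 3.19 ± 0.260 CPM in LPS + GAS and 6.62 ± 2.66 CPM in LPS. Its unadjusted p was 0.0153, rank 5 of the 628 by p, and its Benjamini-Hochberg adjusted p was 0.903 in edgeR's quasi-likelihood test. It was the only member with an unadjusted p under 0.05 (3.66% of all miRNAs tested) and the only one whose groups did not overlap (4.46% of all were lower without overlap). miR-337-3p was at -0.58 (SE 0.27, unadjusted p = 0.0619 in the same test), or -0.28 without LPS replicate 3, and miR-433-3p at -0.39 (SE 0.34). The most abundant members, miR-127-3p and miR-434-3p, were at -0.18 (SE 0.20) and -0.19 (SE 0.37), and the remaining 4 lay between -0.22 and -0.09. With library totals as the scale, miR-136-5p and miR-337-3p were also lower without overlap, against 34 of all 628 miRNAs on that scale.

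The shared direction depended on LPS replicate 2, the library with the highest scaling factor. Without it, 6 of the 9 members were below 0, and miR-136-3p, miR-431-5p and miR-434-5p had log2 fold changes of 0.045, 0.074 and 0.056. miR-127-3p was then at -0.03 and miR-433-3p at -0.08, and the median over the members was -0.03. By scaled CPM LPS replicate 2 was the highest library for 3 of the 9 members, against 17.0% of all miRNAs tested. By share of reads, which carries no scaling, it was the highest for 7 of the 9. The count over all miRNAs was not made on that scale. The members stayed below 0 with every other library left out and with each other tool, filter or scaling tried.

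Markers of other cell types were looked at in the same comparison. The 8 choroid plexus and ependymal marker miRNAs were all above 0 in LPS + GAS vs LPS (median log2 fold change 1.55), with a summed level of 11962 to 56474 CPM in LPS + GAS and 9370.4 to 22097 CPM in LPS, and none of them at 0. The 4 red blood cell markers were above 0 as well, with sums of 4541 to 6175 CPM in LPS + GAS and 2150 to 3241 CPM in LPS, again with none at 0. The sums of the choroid plexus markers overlapped between the groups and those of the red blood cell markers did not. All 3 oligodendrocyte markers (median 0.46) and all 4 microglia and leukocyte markers (median 0.27) were above 0 too. The neuronal and endothelial markers were divided, with 2 of 4 (median -0.03) and 1 of 2 (median -0.08) above 0. No marker on these lists passed the test, and their part in the members' values was not tested. In tissue of this kind, fewer cells that express a miRNA and less of it per cell cannot be told apart.

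The third comparison sets LPS + GAS against saline. It shares the LPS + GAS libraries with the second comparison and the saline libraries with the first, so the values are given side by side and not as separate evidence. The log2 fold change was below 0 for 8 of the 9 members, against 55.9% of all miRNAs tested, with a median of -0.24 over the members and -0.03 over all. None of the 9 passed the test, where 0.159% of all miRNAs (1 of 628, not a member) did. miR-337-3p showed the largest difference, with -0.80 (SE 0.27) and group means of 16.8 ± 3.42 CPM in LPS + GAS and 29.3 ± 5.42 CPM in saline. Its unadjusted p was 0.0165 and its Benjamini-Hochberg adjusted p 0.998 in edgeR's quasi-likelihood test. It was the only member with an unadjusted p under 0.05, against 3.34% of all, and with miR-434-5p (-0.39, SE 0.23) it was 1 of 2 members that were lower without overlap, against 4.78% of all. With library totals or DESeq2's size factors as the scale, miR-337-3p alone was without overlap, against 26 and 25 of all 628 miRNAs that were lower. miR-127-5p was at -0.55 (SE 0.36), or -0.36 without saline replicate 2. miR-434-3p was the member above 0, with 0.42 (SE 0.37), a value that was 0.15 without saline replicate 2 and 0.89 without saline replicate 3. The -0.39 of miR-434-5p was -0.19 without saline replicate 2, and miR-431-5p was at -0.0035, with a sign that changed with the scaling. The choroid plexus and red blood cell markers were above 0 in this comparison too, 8 of 8 and 4 of 4 (medians 1.03 and 0.61). Their sums in saline were 9312 to 29290.2 CPM and 2025 to 4267 CPM. Of the other lists, 3 of 4 microglia and leukocyte, 2 of 4 neuronal, 1 of 3 oligodendrocyte and 0 of 2 endothelial markers were above 0. The medians of these lists were 0.42, 0.07, -0.15 and -0.11. No marker was called, and the part of the markers in the members' values was not tested.

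Read across the 3 comparisons, miR-337-3p had -0.22, -0.58 and -0.80 in the order in which the comparisons are given above, with group means of 29.3, 25.2 and 16.8 CPM in saline, LPS and LPS + GAS. miR-127-5p had 0.51, -1.052 and -0.55, and miR-434-3p 0.62, -0.19 and 0.42. None of the members reached an adjusted p of 0.05 in any comparison under any of 17 alternatives, where the lowest adjusted p was 0.481, that of miR-127-5p in LPS + GAS vs LPS without a filter on low counts (edgeR's quasi-likelihood test). LPS + GAS replicate 2 was the lowest library for 5 of the 9 members (14.8% of all miRNAs tested). No member had its highest library in the LPS + GAS group. LPS + GAS replicates 1, 2 and 3 were the highest library for 12.9%, 10.8% and 9.24% of all miRNAs tested.

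**Figure D3:**
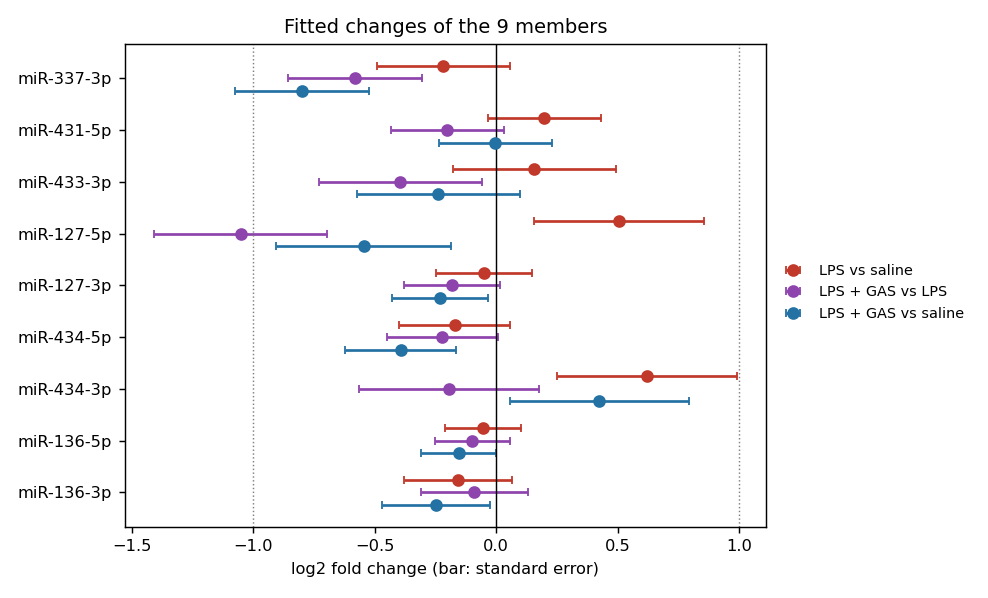
Fitted log2 fold change of each member (x axis; dotted lines at -1 and 1 mark the size required for a call) in the 3 comparisons, given by colour, with the standard error as bars. All 9 members are left of 0 in LPS + GAS vs LPS, where miR-127-5p at -1.052 is farthest from 0.

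A hairpin yields a 5p and a 3p arm, and the arm that Argonaute keeps usually dominates. The ratio of the arms within a library does not depend on library size or scaling. The dominant arm was the same in all 9 libraries for each of the 6 hairpins, and it differed between neighbouring hairpins. The 3p arm dominated in Mir433 (median 137-fold), Mir127 (median 5796-fold, from 2505 to 7741) and Mir434 (median 8.67-fold). The 5p arm dominated in Mir337 (median 16.2-fold), Mir431 (median 16.5-fold) and Mir136 (median 11.04-fold). For Mir337 the member is thus the lesser arm, the major one being miR-337-5p with 368 ± 41.2 CPM. The partners of miR-431-5p and miR-433-3p that are not members, miR-431-3p and miR-433-5p, were at 18.3 ± 3.07 and 20.9 ± 4.01 CPM.

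With 6 hairpins and 3 comparisons, 18 exact two-sided permutation tests of the arm ratio were made, and none gave an adjusted p below 0.72. The arm ratio of Mir431 in LPS + GAS vs saline was the only 1 without overlap, with log2 ratios of 5p to 3p reads of 4.23 ± 0.12 and 3.83 ± 0.22 and the smallest p the design allows, 0.1 (exact). For Mir127 the log2 ratio was -12.66 ± 0.23 in LPS + GAS and -11.88 ± 0.63 in LPS (exact p = 0.2), which follows the lower miR-127-5p values in LPS + GAS.

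In Mir434, a single library broke the pattern. The log2 ratio of 5p to 3p reads was -1.13 in saline replicate 2 and between -2.72 and -3.74 in the other 8 libraries. Saline replicate 2 had 9419 reads of miR-434-5p, near the top of the range for that arm, and 20652 of miR-434-3p, the fewest of any library. Its ratio lay 2.00 log2 units from the median, rank 4 among 188 hairpins with both arms in that library, where 15 of the 188 lay more than 1 unit away. In the other libraries miR-434 was never more than 0.63 units from the median. By scaled level too, miR-434-3p had its lowest and miR-434-5p its highest value of the 9 libraries there. The cause was not tested.

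**Figure D4:**
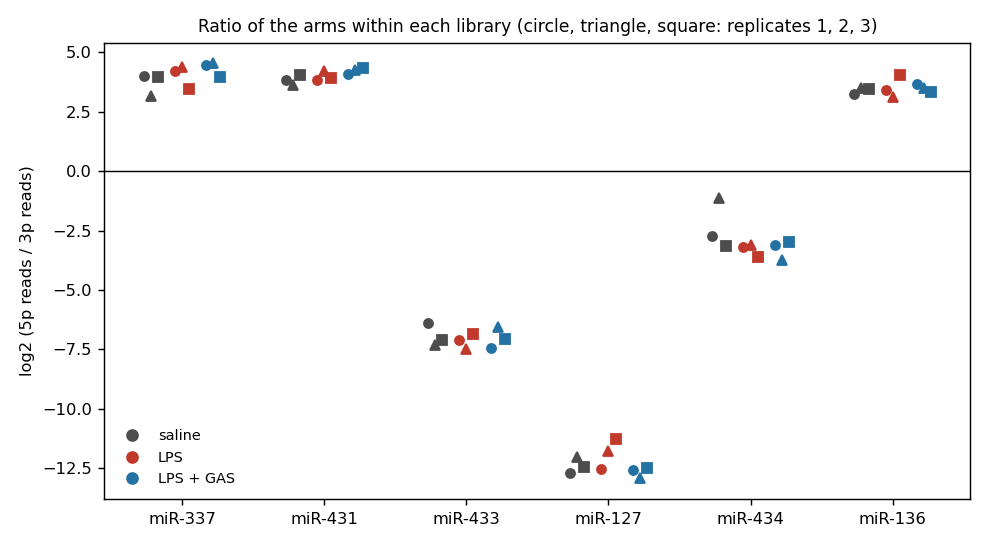
Log2 ratio of 5p to 3p reads (y axis) for the 6 hairpins (x axis) in each library, with colours for the groups and marker shapes for the replicates. Values above 0 mean that the 5p arm dominates; Mir434 in saline replicate 2, at -1.13, stands apart from the other 8 libraries.

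On the strand of Rtl1 itself, the annotation has Mir3071 across Mir136 (chr12:109595318-109595397) and Mir3544 across Mir337 (chr12:109585813-109585873). The arms pair over long stretches, with 20 bases of miR-136-5p opposite miR-3071-3p. Their sequences are shown side by side because the reads of each come from opposite strands of the same DNA.
miR-136-5p: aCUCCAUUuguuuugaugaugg
miR-3071-3p: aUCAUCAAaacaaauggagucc

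miR-3071-3p was at 114, 161 and 122 CPM in saline, at 111, 106 and 118 CPM in LPS and at 83.9, 92.9 and 96.3 CPM in LPS + GAS. All LPS + GAS libraries were below all libraries of both other groups. Of all miRNAs tested, 4.46% were lower without overlap against LPS and 4.78% against saline. The share lower than both groups was not counted. The log2 fold change was -0.29 (SE 0.18) against LPS and -0.54 (SE 0.18) against saline, with an unadjusted p of 0.0144 and a Benjamini-Hochberg adjusted p of 0.998 in the latter (edgeR's quasi-likelihood test). Its plus-strand partner miR-136-5p had 3.30 to 5.47 times as many reads in each library. That ratio was higher in all 3 LPS + GAS libraries than in any other library. Its exact two-sided permutation p was 0.1 against either group, the smallest possible. The ratio was tested in addition to the arm ratios of the hairpins, and its p was not adjusted. It contains the miR-3071-3p reads of the same libraries, already described as lower without overlap. The p is therefore not evidence separate from that difference. The other minus-strand miRNAs were close to the limit of detection, with miR-3544-5p at 1.11 ± 0.326 CPM, miR-3071-5p at 0.15 ± 0.12 CPM and miR-3544-3p at 0.059 ± 0.085 CPM.

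The other miRNAs of the domain gave similar values. In LPS + GAS vs LPS, 14 of 15 tested miRNAs of the rest of the proximal part (from miR-770 to miR-3071) were below 0, as were 5 of 5 in the middle part (miR-341, miR-1188 and miR-370) and 46 of 62 in the distal Mirg part, against 49.4% of all miRNAs tested. The medians were -0.29, -0.40 and -0.15, next to -0.20 for the members and 0.0030 for all 628. In LPS + GAS vs saline 13 of 15, 4 of 5 and 51 of 62 were below 0 (55.9% of all), with medians of -0.33, -0.29 and -0.16. In LPS vs saline the counts below 0 were 7 of 15, 0 of 5 and 37 of 62 (57.5% of all), with medians of 0.0080, 0.18 and -0.04. No miRNA on these lists passed the test in any comparison. In LPS + GAS vs LPS, 6 of the 15 in the rest of the proximal part were lower without overlap (4.46% of all miRNAs tested), among them the non-member arms miR-337-5p (-0.25, SE 0.16) and miR-431-3p (-0.41, SE 0.20), along with 1 of 5 in the middle part and 5 of 62 in the distal part. These lists share libraries and scaling with the members, so a common direction is not independent of theirs. LPS replicate 2 was the highest library for 5 of the 15 and 20 of the 62, against 17.0% of all miRNAs tested. For saline replicate 3 the counts were 5 and 21, against 13.2%. The counts below 0 are not given for these lists without LPS replicate 2, on which the members' shared direction depended.

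**Figure D5:**
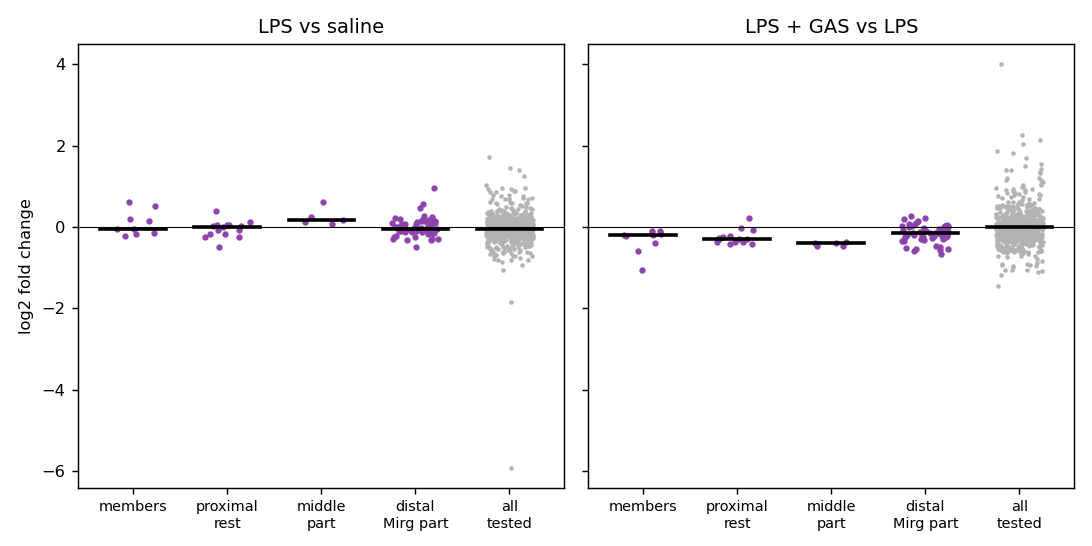
Log2 fold change (y axis) of each miRNA tested in LPS vs saline (left) and LPS + GAS vs LPS (right), for the 9 members, the 15 of the proximal rest, 5 of the middle part, 62 of the distal Mirg part and all 628 tested. Black lines are medians. The medians of the 4 domain groups lie between -0.40 and -0.15 in LPS + GAS vs LPS, and that of all miRNAs is at 0.0030.

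How alike the members were can be described over the 9 libraries, which share the groups and the scaling and are few. The correlation of each member's log2 CPM with the mean of the other members, scaled, was highest for miR-433-3p (Pearson's r = 0.684), miR-434-5p (0.634), miR-127-3p (0.613) and miR-127-5p (0.594). It was 0.450 for miR-431-5p, 0.276 for miR-337-3p and 0.165 for miR-136-3p. For miR-434-3p and miR-136-5p it was below 0, at -0.114 and -0.205, so the 2 arms of Mir434 sat at opposite ends of this order, as did miR-434-3p and miR-433-3p, its neighbour in level.

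Among the miRNAs that are not members, those whose profile over the 9 libraries was most like the members' mean were miR-540-3p (r = 0.909) and miR-370-5p (r = 0.901). They were followed by miR-12200-3p, miR-760-3p, miR-409-5p, miR-467d-3p, miR-676-3p, miR-412-3p, miR-341-3p and miR-541-3p, down to r = 0.848. Of these 10, 6 lie in the domain, and the other 4 lie on chromosomes 2, 3, 5 and X. Among those 4, miR-12200-3p and miR-467d-3p were scarce, with means of 1.01 and 2.94 CPM, the former close to the filter of 10 reads. The domain supplies 13.2% of the tested miRNAs that are not members. The median r was 0.514 over the 82 domain miRNAs and -0.0477 over the 537 others.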

How the data were processed

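Small RNA of mouse hippocampus was sequenced on a BGI platform in 9 libraries. The authors deposited read counts per mature miRNA, not normalized, and "exp" counts that never exceed them and whose making is not described. The deposited averages and the authors' own comparisons (log2 fold changes with DESeq2 p-values and q-values) were not used. GRCm38.p6 is named in the submitters' processing notes. Not given in the sources used here were the aligner, counter and miRBase release. A column was assigned to a sample by its title, and 0 columns of values belonged to no sample.

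The counts of the 628 of 1448 miRNAs that reached 10 reads in 3 or more libraries entered edgeR 4.0.16 (R 4.3.3), with TMM factors, 1 fit over 9 libraries with a mean per group (glmQLFit, glmQLFTest) and Benjamini-Hochberg adjustment over the 628. Calls took an adjusted p up to 0.05 and a log2 fold change of 1 or more in size. CPM are edgeR's. Errors of levels are SDs over libraries, and SEs come from the fit. Arm ratios are the log2 of the ratio of the reads of both arms, and adding 1 read to each arm was an alternative. Likeness used log2 of CPM plus 1. Permutation tests were exact and two-sided over 20 divisions (scipy 1.17.1).

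On simulated data for LPS vs saline (620 miRNAs, 198 changed) edgeR recovered 190 (96.0%) with 4 false calls. DESeq2 1.42.0 recovered 188 with 3, and limma 3.58.1 voom 186 with 5. Recovery by these tools at the sizes of difference fitted for the members was not tested. Alternatives were these tools, DESeq2's size factors, no filter, at least 50 reads, exp counts, fits of the compared groups only, a replicate block and each library left out. Same-numbered libraries deviated together in LPS + GAS vs saline (r of 0.296 to 0.370), a pairing that rests on these correlations alone, but not in LPS vs saline (-0.284 to 0.317) or LPS + GAS vs LPS (-0.274 to 0.0466).

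Positions and sequences are from GENCODE M21 and RefSeq, and the sites from its Rtl1 transcript. The miRNAs named are the members, the other arms of their hairpins, the miRNAs opposite them and the 10 most alike. Members and lists were chosen with earlier results of these data known.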

Additional observations from a re-analysis of the deposited data

How the results depend on the processing

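No member was called in any comparison under any alternative (0 of 9 each time), including the replicate block, which also left 0 members called and changed no other call among the members. The difference in summed read share, in percentage points, moved by less than the pooled SD of the groups compared but did not keep its sign. With 1 library left out it ranged from -0.19 (without LPS replicate 2) to 0.82 around 0.43 in LPS vs saline, from -1.004 to -0.073 (without LPS replicate 2) around -0.69 in LPS + GAS vs LPS, and from -0.63 to 0.13 (without saline replicate 3) around -0.26 in LPS + GAS vs saline, where it was 0.078 without miR-127-3p. Signs of single members were not firm either, and their reversals concern differences smaller than their standard errors; the cause was not tested. In LPS vs saline, miR-127-3p was at 0.0090 with DESeq2's size factors or Wald test, at 0.038 with exp counts and at 0.00016 with only the compared groups fitted. With 1 library left out in turn it ranged from -0.15 to 0.15, miR-136-5p from -0.13 to 0.060, miR-136-3p from -0.25 to 0.0072, miR-431-5p from -0.031 to 0.37, miR-433-3p from -0.12 to 0.43 and miR-434-5p from -0.41 to 0.032. In LPS + GAS vs LPS the corresponding ranges were -0.25 to 0.045 for miR-136-3p, -0.37 to 0.074 for miR-431-5p and -0.36 to 0.056 for miR-434-5p, each highest without LPS replicate 2. In LPS + GAS vs saline, miR-431-5p was at 0.058 with DESeq2's size factors or Wald test, 0.053 with no filter, 0.042 at 50 reads, 0.015 with voom and 0.035 with exp counts, and ranged from -0.075 to 0.15 with a library left out. miR-433-3p ranged from -0.40 to 0.038. Of 153 member values per comparison, 15, 3 and 13 had the opposite sign. The exact 95% Poisson intervals of miR-127-5p (29 to 93 reads) overlapped between LPS replicate 1 and all LPS + GAS libraries.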
